A study of Homo sapiens with 12 samples.

Results

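H3K27me3, the trimethylated form of lysine 27 of histone H3, was compared between the Tau-KO line 232P and Tau expressing (WT) SH-SY5Y cells, a human neuroblastoma line. Chromatin immune precipitation was followed by sequencing (ChIP-seq), and 2 biological replicates per genotype gave 1 peak list each. The genotype label of 232P is a knock out, and WT is the line that still makes Tau. All samples were SH-SY5Y cells without a further treatment in the labels, and the methods name CRISPR-Cas9 for a line of the same series that kept Tau. The guide used for 232P and whether the line is a single clone are not given in the sources used here. Overlapping peaks of the 4 lists on the autosomes were merged to 231347 marks. A mark was called lost when both WT lists and neither 232P list held it, and gained when both 232P lists and neither WT list held it. This gave 18920 lost marks, 21.3% of the 88737 in both WT lists, and 980 gained marks, 2.33% of the 42000 in both 232P lists, together 19900. Over all 6 ChIP lists of the series, which include the Tau-KO line 231K, and over all chromosomes there were 279786 merged marks. Lost and gained are therefore names for presence in lists, and the values of single peaks carry no replicate error.

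H3K27me3 is written by the Polycomb repressive complex PRC2, in which EZH2 is the methyltransferase and SUZ12 a core subunit. The mark can spread over broad domains and is bound by readers that help to keep genes silent. In cells of neural origin it covers many developmental regulators of other lineages and large arrays of tissue-restricted genes, such as those of olfactory receptors and keratins. MACS, the peak caller, sets the pile of reads along the genome against the background nearby. It gives each peak a fold enrichment at its summit and a p-value and q-value, the latter corrected for the number of positions tested. A higher -log10 q stands for a stronger peak within its own list.

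The reference sequence around the summit is shown for 5 marks near a transcription start site (TSS), to let the base composition of strong lost and gained marks be read beside their values. Each is the plus strand of hg38, 5′ to 3′, 300 bases, with CG dinucleotides in capitals. SP110 (chr2:230211328-230211627), NPR3 (chr5:32713117-32713416) and FERMT1 (chr20:6121581-6121880) had a lost mark, and OR8J3 (chr11:56140261-56140560) and RNASE10 (chr14:20504933-20505232) a gained mark.
SP110: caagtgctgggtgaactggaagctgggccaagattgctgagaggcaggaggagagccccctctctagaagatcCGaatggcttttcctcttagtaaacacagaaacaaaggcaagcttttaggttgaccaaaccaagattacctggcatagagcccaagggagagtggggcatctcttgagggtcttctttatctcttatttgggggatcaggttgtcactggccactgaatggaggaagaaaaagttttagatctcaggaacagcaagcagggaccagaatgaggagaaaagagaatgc
NPR3: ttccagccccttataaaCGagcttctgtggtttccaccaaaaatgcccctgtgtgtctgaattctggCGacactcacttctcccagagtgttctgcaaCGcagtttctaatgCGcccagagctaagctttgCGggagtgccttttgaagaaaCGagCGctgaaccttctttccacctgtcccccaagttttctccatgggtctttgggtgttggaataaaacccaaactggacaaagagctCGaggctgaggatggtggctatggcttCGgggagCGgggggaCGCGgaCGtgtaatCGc
FERMT1: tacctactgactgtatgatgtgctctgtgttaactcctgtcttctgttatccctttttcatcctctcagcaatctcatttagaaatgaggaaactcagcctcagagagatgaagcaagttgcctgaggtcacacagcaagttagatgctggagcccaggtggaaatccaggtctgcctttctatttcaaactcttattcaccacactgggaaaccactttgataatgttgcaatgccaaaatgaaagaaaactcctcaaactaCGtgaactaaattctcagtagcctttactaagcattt
OR8J3: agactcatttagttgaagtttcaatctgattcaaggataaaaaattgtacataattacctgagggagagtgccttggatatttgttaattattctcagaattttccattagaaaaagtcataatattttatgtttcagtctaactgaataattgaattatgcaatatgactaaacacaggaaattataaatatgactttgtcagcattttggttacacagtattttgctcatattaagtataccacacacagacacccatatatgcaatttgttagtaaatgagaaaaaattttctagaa
RNASE10: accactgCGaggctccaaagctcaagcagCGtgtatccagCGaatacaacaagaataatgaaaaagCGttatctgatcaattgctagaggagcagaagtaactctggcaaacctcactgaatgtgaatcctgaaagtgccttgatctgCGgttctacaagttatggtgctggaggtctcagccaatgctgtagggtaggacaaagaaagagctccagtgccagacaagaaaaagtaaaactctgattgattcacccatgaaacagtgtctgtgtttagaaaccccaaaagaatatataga
The NPR3 stretch held 14 CG and 53.0% G or C. The SP110 and FERMT1 stretches held 1 CG each, with 48.3% and 41.3% G or C. RNASE10 had 5 CG and 43.3%, and OR8J3 none and 28%. CG reads the same on both strands. Of 35116 RefSeq promoters of the same length (GRCh38.p14), 96.0% held at least 1 CG, the median was 14, and 33.7% held at most 5. The NPR3 stretch thus equalled the promoter median in CG number and the other 4 were CG-poor beside it, which describes these windows only. They are centred on peak summits and are not the promoters of the genes. The summits of NPR3, SP110 and FERMT1 lay 24197, 14251 and 1483 bp into the gene from its 5′ end.

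The 232P lists were shorter than the WT lists, and within each replicate number they were also shallower. On the autosomes, WT replicates 1 and 2 had 246970 and 188900 peaks, and 232P replicates 1 and 2 had 136426 and 177579. The groups did not overlap, with 217935 ± 41062 (SD, n = 2) peaks in WT and 157002 ± 29100 (SD, n = 2) in 232P, a ratio of 0.720 (two-sided exact permutation test, p = 0.33, adjusted p = 0.500 over 3 tests). This is the smallest p that 2 against 2 lists allow, so none of these tests could reach 0.05. With peaks within 1 kb merged, the groups overlapped (exact permutation test, p = 0.667). WT then had 94650 and 79463 peaks, and 232P had 73186 and 87086. Peaks covered 194 and 256 Mb in WT but 66.6 and 196 Mb in 232P, with a ratio of 0.584 (exact permutation test, p = 0.667, adjusted p = 0.667). Here the groups overlapped, since 232P replicate 2 covered more than WT replicate 1. Protein-coding genes with a peak within 1 kb of an annotated TSS numbered 3099 and 3148 in WT, and 2563 and 2781 in 232P. The ratio was 0.855 (exact permutation test, p = 0.33, adjusted p = 0.500), with no overlap between the groups.

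Read numbers are not in the lists, but the lowest local background divided by the smallest peak width gives each library's relative depth. Taking WT replicate 1 as 100%, WT replicate 2 stood at 66.6%, and the 232P libraries stood at 68.1% (replicate 1) and 56.9% (replicate 2). The 232P libraries were thus the shallower ones within each replicate number, while 232P replicate 1 and WT replicate 2 were close to each other. Replicate 1 lists also had narrower peaks, with a median width of 458 bp in WT and 341 bp in 232P, against 718 and 692 bp in replicate 2. Within replicate 1 the 232P to WT ratio of peak numbers was 0.552, and within replicate 2 it was 0.940. Depth and genotype cannot be told apart in peak numbers. No peak of any list lay in MAPT, the gene of Tau, so the lists do not check the genotype. The peak identifiers inside both 232P lists start with 231P, and the study used a separate Tau-KO line of that name for its RNA-seq. Grouping was by label, and which of these lines the lists come from was not tested, so that 232P stands here for the libraries labelled 232P. Core genes of adrenergic neuroblastoma cells, such as HAND2 and DBH, had the mark at the TSS in both WT lists for 1 of 17 and in both 232P lists for none, where 2857 of all 19111 protein-coding genes had it in both WT lists.

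The largest group shared by more than 1 list was that of the 37933 marks in all 4 lists. A further 27167 marks were in both WT lists and 232P replicate 2 only, and 4717 in both WT lists and 232P replicate 1 only. Marks missing from just 232P replicate 1, the list with the narrowest peaks, were therefore more numerous than the lost marks themselves. In bases, 36.8 of the 141 Mb covered in both WT lists (26%) were in neither 232P list, and 1.65 of the 43.2 Mb covered in both 232P lists (3.82%) were in neither WT list. Marks present in all 4 lists were covered to 67.0% and 84.1% of their length by WT peaks, and to 28.7% and 67.8% by 232P peaks. Merging peaks within 1 kb left 5379 lost and 242 gained marks. A common p-value threshold at equal depth gave 12370 lost marks, and lists of equal number gave 7998 lost and 1912 gained. Without WT replicate 1 or 2 there were 57860 or 61062 lost and 2248 or 2799 gained marks. Without 232P replicate 2 there were 46087 lost and 8495 gained, and without 232P replicate 1 there were 24905 gained.

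**Figure D1:**
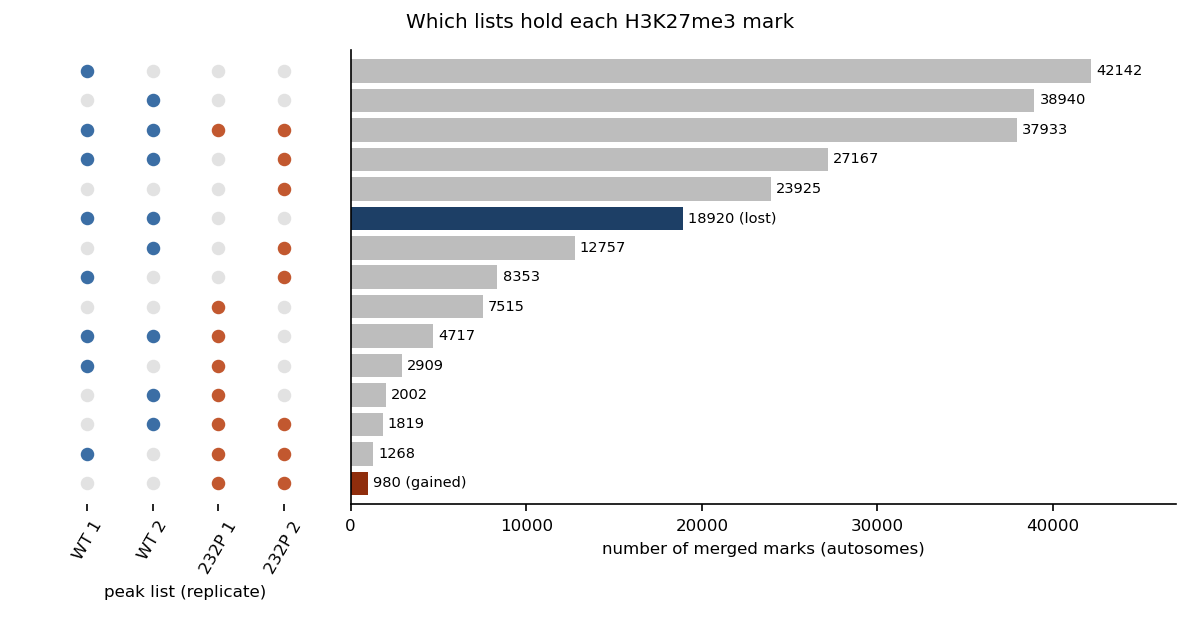
Number of merged autosomal marks (horizontal axis) for each combination of the 4 peak lists that hold them (filled dots, left). The 18920 lost marks are the dark blue bar and the 980 gained marks the dark red bar, beside 37933 marks in all 4 lists.

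Lost marks were narrow and weak within the WT lists. Their median width was 755 bp (quartiles 552 and 1053 bp), against 3715 bp for marks in all 4 lists, and 9 of them were wider than 5 kb, against 13706 of those in all 4. Their median fold was 3.18 and 3.36 in WT replicates 1 and 2, with a median -log10 q of 1.99 and 2.41. Marks in all 4 lists had a median WT fold of 4.76 and 5.04 and a -log10 q of 4.56 and 5.84. A median of 8 reads was piled up at the summit of a lost mark in either WT list, against 12 at marks in all 4. Gained marks were of a like kind, with a median width of 594 bp and a median 232P fold of 3.48 and 3.53, where marks in all 4 lists had 4.37 and 4.86. The highest fold among lost marks was 8.34 and 9.33 in the WT replicates, and among gained marks 5.97 and 7.50 in the 232P replicates.

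Each mark was ranked by its -log10 q within each WT list, and the lower of its 2 percentiles was taken as its WT strength. Of marks in the lowest 10 percent of this scale, 46.6% were lost. The share was 32.1% at percentiles 30 to 40, 14.8% at 50 to 60 and 4.60% at 70 to 80. Above percentile 90, 22 of 8859 marks were lost, or 0.248%. Loss thus became rarer with WT strength at every step. To see which marks depth alone could remove, WT height and background were scaled down to the depth of 232P within each replicate number, by 0.681 and 0.855, and set against the lowest -log10 p of the 232P lists, 2.5 and 2.07. Of the 18920 lost marks, 13114 (69.3%) still passed in both replicates, while 36396 of 37933 marks in all 4 lists (95.9%) did. Passing followed WT strength, so the lower share of lost marks restates that they were weaker. In the lowest 10 percent, 1207 of 4322 lost marks passed, and 2574 of all 9270 marks. The scaling does not allow for the sampling of reads. It was added after the data were seen, and it lets 75470 of the 88737 marks in both WT lists (85.0%) pass.

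**Figure D2:**
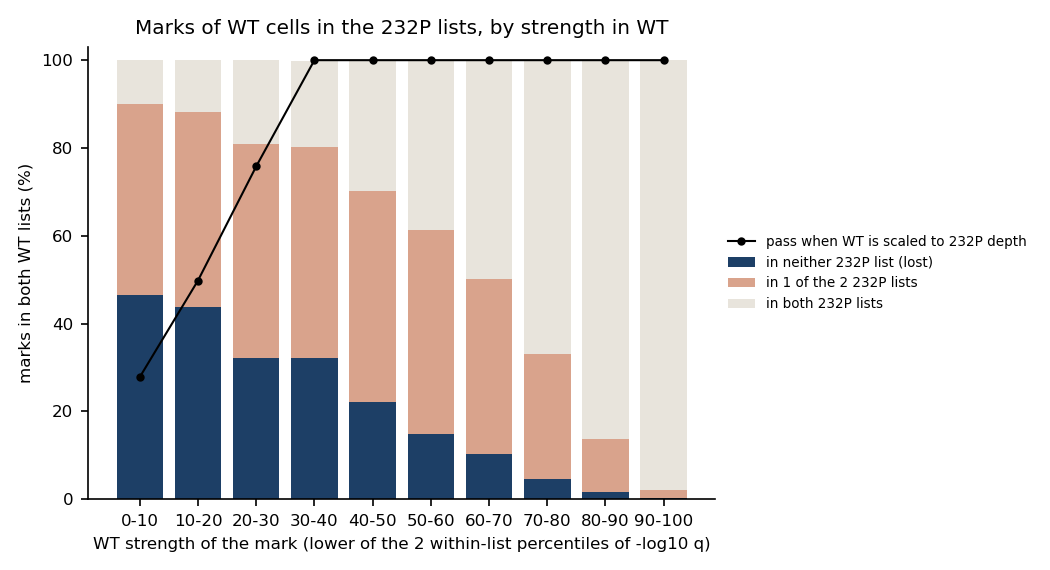
Share of the marks in both WT lists (vertical axis, percent) that were in neither, 1 or both 232P lists, by WT strength (horizontal axis, percentile). The black line gives the share that passed after scaling WT to 232P depth. The lost share goes from 46.6% in the weakest marks to 0.248% in the strongest, and the line is at 100% from percentile 30 upwards.

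Most lost marks lay near a 232P peak. The median distance to the nearest 232P peak was 653 bp, 63.3% had one within 1 kb and 92.4% within 5 kb. Only 387 lost marks (2.05%) had none within 20 kb, and 132 had none within 100 kb. For gained marks the median distance to the nearest WT peak was 288 bp, with 84.7% within 1 kb, and the WT lists hold more peaks to be near to. Of the 980, 11 had no WT peak within 20 kb and 9 none within 100 kb. At the boundary of the rule, the gained mark of BCL3 lay directly beside a WT peak (0 bp apart), that of OR8J3 lay 3 bp and the lost mark of FERMT1 113 bp from a peak of the other genotype.

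Positions were given in order of priority as TSS of protein-coding genes, TSS of long non-coding RNA (lncRNA) genes, bodies of either, and outside both. Of lost marks, 457 (2.42%) lay at a protein-coding TSS, 25.6% in protein-coding bodies, 18.7% in lncRNA bodies and 51.3% outside genes. Of gained marks, 30 (3.06%) lay at a protein-coding TSS and 53.4% outside genes. Among marks in all 4 lists, 11% lay at a protein-coding TSS and 42.2% outside genes. At like WT strength, TSS marks had lower lost shares than all marks. At percentiles 20 to 40 the protein-coding TSS marks were lost in 25.2% of cases against 32.2% of all marks, and at percentiles 60 to 80 in 4.54% against 7.59%. Base composition differed little, with 39.8% and 39.6% G or C in the 500 bp around the WT summits of lost marks, against 43.0% and 42.2% for marks in all 4 lists. The ratio of observed to expected CG was 0.165 for lost marks in both WT lists and 0.200 for marks in all 4.

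A total of 395 protein-coding genes had a lost mark at the TSS, which is 13.8% of the 2857 with a TSS mark that both WT lists held. The mark of 311 of these genes (78.7%) passed after scaling to 232P depth. Of the 395 genes, 304 had another mark at one of their annotated starts in a 232P list and 91 had none. When each gene was called by any peak at its TSS, 153 of 2822 genes had one in both WT lists and none in 232P. The number of genes with a lost TSS mark was 152 with peaks merged within 1 kb, 210 with lists of equal number and 698 with presence set at 50% coverage. It was 851 and 947 without WT replicate 1 or 2, and 670 and 920 without 232P replicate 1 or 2.

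The 20 genes whose lost TSS marks ranked highest by WT strength had a fold of 3.96 to 8.34 in WT replicate 1 (median 4.78) and of 3.99 to 6.73 in WT replicate 2 (median 5.46). All 20 marks passed after scaling, but their selection fixed this. They lay at percentile 72.8 or higher, and every mark above percentile 30 passed, lost or not. Of the 20 marks, 8 had no 232P peak within 1 kb, and 16 of the genes had another TSS mark in a 232P list. The summit lay within 1 kb of the 5′ end of the gene in 7 of them and further off in the others.

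The lost mark at SP110, an interferon-induced component of nuclear bodies, was 2883 bp wide (chr2:230209117-230211999). Its fold was 4.79 in WT replicate 1 and 5.88 in replicate 2, with a -log10 q of 4.84 and 6.77. No 232P peak lay within 4015 bp, although 5 of the 8 TSS marks of the gene were still in a 232P list. NPR3, the clearance receptor of natriuretic peptides, had the highest fold of the 20 in WT replicate 1, 8.34, and 5.46 in replicate 2 (-log10 q 12.1 and 5.96; chr5:32713016-32713533). In 231K the NPR3 mark had a fold of 6.15 and 5.84, and that of SP110 was in replicate 2 only, with 5.00. FERMT1, which encodes the integrin-binding protein kindlin 1, had a lost mark of 1991 bp (chr20:6120072-6122062). Its fold was 4.76 and 5.47, and a 232P peak lay 113 bp away. THBS2, a thrombospondin of the extracellular matrix, had 4.76 and 5.04 (chr6:169252121-169253588). VSX1, a homeobox gene of retinal interneurons, had 4.76 and 6.30 (chr20:25076380-25077586). In the 2 WT lists 11 to 14 reads were piled up at the THBS2, VSX1 and FERMT1 summits, and 20 and 12 at that of NPR3.

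Other genes of the 20 included DMRTA2, a transcription factor of the developing forebrain, with a fold of 4.37 and 4.29. STXBP2, needed for granule secretion in immune cells, had 4.37 and 5.46. PPFIA2, a scaffold of presynaptic terminals, had 3.96 and 5.04. CLRN1, a membrane protein of hair cells, had 4.37 and 5.38, and CBLC, a ubiquitin ligase of epithelia, had 5.96 and 4.62. Each of these was in both WT lists above the median fold of lost marks, which goes with their selection by WT strength. A separate set was duplicated. It held PRR20B (7.36 and 4.67), OR2A42 (5.96 and 6.30), POTEM (5.53 and 5.67), OR2T3 (5.16 and 6.73), ARHGEF5 (5.96 and 5.46) and DEFA1B (5.56 and 4.92). The sequence of these marks has between 2 and 5 near-identical copies in hg38, the mark itself counted. Their reads may therefore be placed with less certainty, which was not tested. For 17 of the 20 genes, both 231K lists held a peak in the mark that 232P lacked, and for 19 at least 1 did. Over all lost marks, most of them weaker in WT, 37.3% were in both 231K lists.

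**Figure D3:**
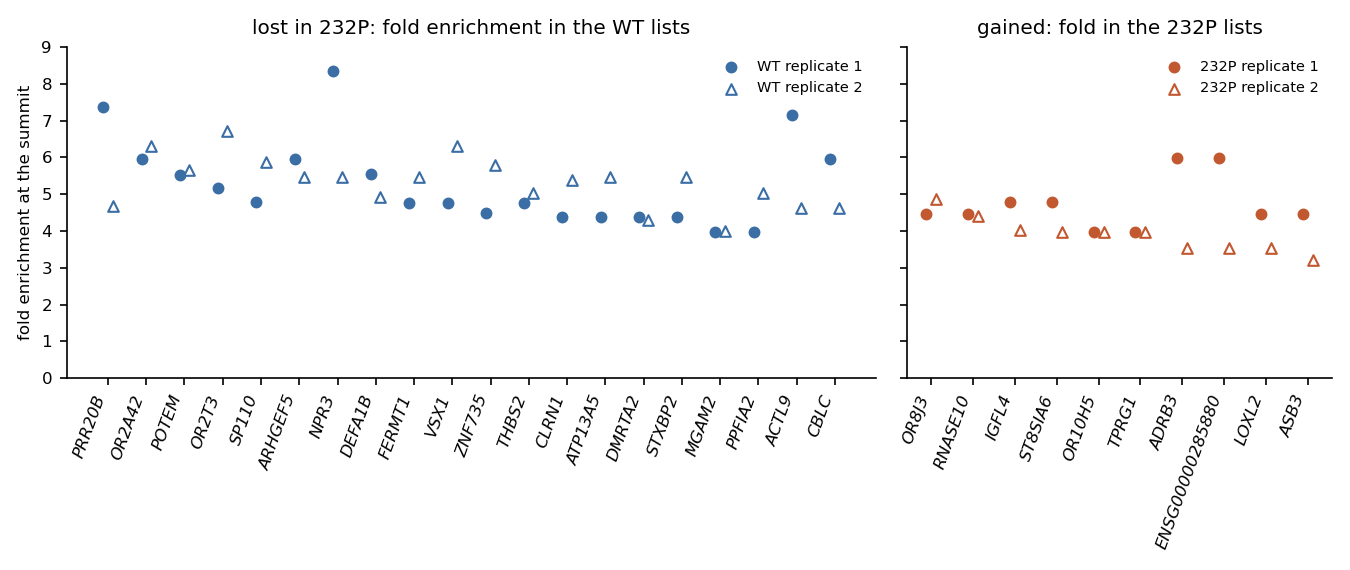
Fold enrichment at the summit (vertical axis, linear) for the 20 genes with the strongest lost TSS marks in the 2 WT lists (left) and the 10 with the strongest gained TSS marks in the 2 232P lists (right). Circles are replicate 1 and triangles replicate 2. Lost marks lie between 3.96 and 8.34 and gained marks between 3.21 and 5.97.

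Regulators of development, the best known PRC2 targets, had lost TSS marks in shares on either side of that of all genes. HOX genes set position along the body axis, and 2 of the 31 that had a TSS mark in both WT lists had a lost one. These were HOXD12, with a fold of 5.56 and 3.71 in WT, and HOXC9, with 3.18 and 2.48. The median WT percentile of the HOX genes' marks was 99.7, against 89.8 for all genes. Other homeobox genes had 3 of 71 (VSX1, POU4F3 and LHX2), bHLH lineage genes 1 of 19 (NEUROD2), and SOX and T-box genes 0 of 11. POU4F3, a regulator of hair cells, had a fold of 4.37 and 4.62. The forkhead genes FOXA1 and FOXP2 were 2 of 14, and PAX7 and PAX9, regulators of muscle and of teeth and thymus, were 2 of 8. The lost marks of FOXP2 and NEUROD2 did not pass after scaling to 232P depth. The HOX, other homeobox, bHLH and SOX shares lay below the 13.8% of all genes, and those above it rest on 2 genes each or on 1. ZIC4, a zinc finger gene of the cerebellum, was 1 of 5 GATA and ZIC genes, with a fold of 4.76 and 4.24 (chr3:147386541-147388645).

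Olfactory receptor genes, of which each sensory neuron expresses very few, were the largest class with lost TSS marks. They numbered 55 of 319 (17.2%, against 13.8% of all genes), and 5 had a gained mark among 234 with one in both 232P lists (2.14%, against 1.29% of all genes). Marks at their TSS were also weaker in WT than those of all genes, with a median percentile of 80.3 for the strongest mark of each gene. By WT strength, the lost share of marks at olfactory receptor TSS was 46.3% below percentile 20, 36.8% at 20 to 40, 14.1% at 40 to 60, 2.2% at 60 to 80 and 1.23% above. All protein-coding TSS marks had 36.3%, 25.2%, 11.3%, 4.54% and 0.388%. The olfactory receptor share was thus the higher one in each bin except 60 to 80. The shares of the upper bins rest on 2 lost marks each, of 91 at 60 to 80 and of 162 above. Keratin and keratin-associated genes, which build the filaments of epithelia and hair, had 13 of 108 (12%), among them KRT18 (fold 3.97 and 3.78 in WT) and KRT6C (6.75 and 4.62), whose mark has 2 near-identical copies in hg38. KRT8 shares the mark of KRT18, its partner in simple epithelia. Cytochrome P450 genes had 5 of 28, defensin genes 2 of 24, immunoglobulin-like and HLA genes 5 of 67, and solute carriers 6 of 56.

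Among secreted factors and their receptors, chemokine and interleukin genes had 6 of 52 lost (11.5%), where the share over all genes was 13.8%. CXCL12, which guides migrating cells, had a lost mark with a fold of 5.56 and 2.94, and CXCL13, which attracts B cells, 3.64 and 4.2. IL21R and IL17RA, receptors of T cell cytokines, had 3.69 and 3.36, and 4.37 and 2.68. MMP and ADAM genes, proteases of the matrix and cell surface, had 5 of 21 (23.8%), with MMP8 at 3.35 and 3.78 and MMP9 at 2.78 and 2.94. After scaling to 232P depth 3 of these 5 passed, MMP8 among them, and MMP9 did not. Collagen genes had 2 of 14, FGF and GDNF genes 2 of 7 (FGF20 and FGF12), WNT pathway genes 0 of 17, and TGF-beta and BMP genes 0 of 8. Of neuronal classes, glutamate, GABA and glycine receptors had 2 of 17 (GABBR2 among them, which also had a gained mark), calcium and sodium channels 2 of 5, axon guidance genes 1 of 15, potassium channels 0 of 29, and cadherins and protocadherins 0 of 12. Of 20 senescence genes marked at the TSS in both WT lists, CXCL12 had a lost mark. Of 18 marked in both 232P lists, IGFBP3 was the only one with a gained mark, where the share over all genes was 1.29%. Of 6 mesenchymal neuroblastoma genes, YAP1 (3.94 and 3.22) and RUNX1 (2.59 and 3.36) had a lost mark. After scaling to 232P depth the mark of YAP1 passed and that of RUNX1 did not. Of the 2 collagen genes and the 2 calcium and sodium channel genes with a lost mark, 1 each passed. The lost mark of the axon guidance gene, ROBO2, did not pass. No PRC2 gene of 13 had a TSS mark in both WT lists.

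**Figure D4:**
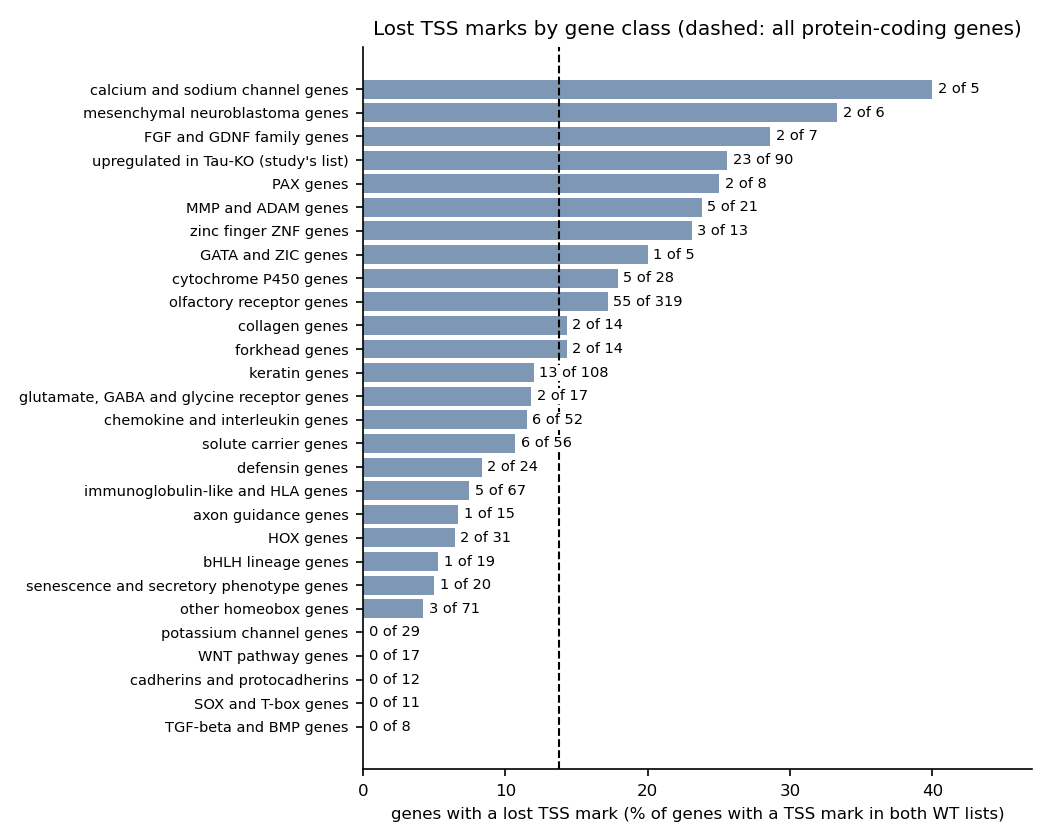
Share of genes with a lost TSS mark (horizontal axis, percent of genes whose TSS was marked in both WT lists), by gene class, with the counts beside each bar. The dashed line is the 13.8% of all protein-coding genes. HOX and other homeobox genes lie below it, and olfactory receptors and the upregulated genes of the study above it.

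The study names 723 genes as upregulated in Tau-KO cells, and 665 were matched to protein-coding genes on the autosomes. A TSS mark was in both WT lists for 90 of them, and 23 (25.6%) had a lost one. Their marks were weaker in WT, with a median percentile of 83.2 against 89.8 for all genes. Counted by mark, 31 of 209 were lost (14.8%) against 457 of 5839 TSS marks of all genes (7.83%). By WT strength the lost share was 57.1% (12 of 21) below percentile 20, 27% (10 of 37) at 20 to 40, 13.0% (3 of 23) at 40 to 60, 9.09% (4 of 44) at 60 to 80 and 2.38% (2 of 84) above. All protein-coding TSS marks had 36.3%, 25.2%, 11.3%, 4.54% and 0.388% in the same bins. The share of the list was the higher one in each bin, on small counts. Of the 23 genes, 19 had a mark that passed after scaling, 9 had no 232P peak within 1 kb of it, and 3 had no TSS mark in a 232P list. Over all 395 genes with a lost TSS mark, 311 (78.7%) had one that passed and 91 had no TSS mark in a 232P list. Of all 457 lost TSS marks, 163 had no 232P peak within 1 kb.

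Besides SP110 and THBS2, the 23 genes included DRAM1, a lysosomal regulator of autophagy, with a WT fold of 4.76 and 4.62. GAD1, which makes the transmitter GABA, had 4.05 and 4.24, and RAB38, a small GTPase of melanosome transport, had 4.37 and 3.36. The cytoskeletal and adhesion genes PPL and KRT18 had 3.18 and 2.94, and 3.97 and 3.78. SPON2, a secreted matrix protein, had 3.18 and 4.2. PPL, SPON2 and RAB38 were at the median fold of all lost marks in 1 WT list, and DRAM1, GAD1 and KRT18 were above it in both. Counting the strongest lost mark of each of the 23 genes, 9 were in both 231K lists and 6 in neither, where 37.3% and 24.0% of all lost marks were. Gained TSS marks were found at BCL3, IGFBP3 and LOXL2, 3 of the 75 listed genes with a TSS mark in both 232P lists (4.00%), where the share over all genes was 1.29%.

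Along the marks held by both WT lists, lost marks fell into 13168 runs uninterrupted by a mark that was not lost, of which 9669 held 1 lost mark. In 19 runs 10 or more marks in a row were lost, 266 marks in all. Peaks of 232P that met no mark of both WT lists could still lie between them, and 11 of the 19 runs held 232P peaks, up to 45 in a run on chromosome 10 and 32 in one on chromosome 13. Of these runs, 9 lay within 1 Mb of alpha satellite, the tandem repeat of centromeres, and 11 held no protein-coding gene. The run with most marks held 27 over 338 kb (chr16:35602894-35940839), where WT had 83 and 50 peaks, 232P had none, and 231K had 3 and 0. Neighbouring runs of 19 and 16 lay at chr6:61035373-61826851 and chr6:60474977-61009194, with 11 and 3 peaks of 232P, and a run of 12 crossed a cluster of olfactory receptor genes from OR4A16 to OR5L1 (chr11:55282808-55815700). Over all marks, 34.2% of those within 1 Mb of alpha satellite were lost (1041 of 3040), 23.5% at 1 to 5 Mb and 20.6% beyond (16286 of 78918). The median WT strength was the same in the 3 zones, percentile 49.2. At percentiles 40 to 80, 24.5% were lost within 1 Mb and 12.4% beyond 5 Mb. Gained shares were 2.41%, 2.18% and 2.34%. Reads map poorly to repeats, and the part of mapping in the lost share was not tested.

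Away from centromeres, several runs lay in or near single genes. At ST6GAL1, a sialyltransferase of the Golgi and a gene of the upregulated list, 14 marks in a row were lost over 76.4 kb (chr3:186906903-186983254), from 23.4 kb before to 52.9 kb after the 5′ end. WT replicates 1 and 2 had 31 and 26 peaks there, covering 15.4 and 18.5 kb, with a highest fold of 4.76 and 5.46. Neither 232P list had a peak, and 11 of the 14 marks passed after scaling. The 231K lists had 3 and 20 peaks, covering 0.641 and 15.2 kb. In the 1 Mb that holds it, from 186000001 to 187000000 of chromosome 3, 29 of 38 marks were lost (76.3%), where the median of 946 such windows was 19.2%. That window is named because its lost share was among the highest, and it counts the 14 marks of the run again. Its distance from the median is therefore no separate result. The highest share was 96.2% (25 of 26), from 15000001 to 16000000 of chromosome 18, close to alpha satellite. The marks of this window were weaker, with a median WT percentile of 33.0 against 49.2 over all marks in both WT lists. Upstream of SMAD1, a signal transducer of bone morphogenetic proteins, 13 marks in a row were lost over 43.2 kb (chr4:145400923-145444145), 80.3 to 37.0 kb before the gene. WT had 28 and 17 peaks that covered 38.1% and 63.3% of the run, 232P had none, and 231K had 0 and 19 peaks, covering 0% and 43.2%. The run held 1 of the 3 lost marks that tied for the highest rank away from any TSS, 8158 bp wide (chr4:145408401-145416558), with a fold of 5.96 and 8.23. In both runs replicate 1 of 231K was nearly as empty as 232P, while replicate 2 had a number of peaks within or near the WT range.

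**Figure D5:**
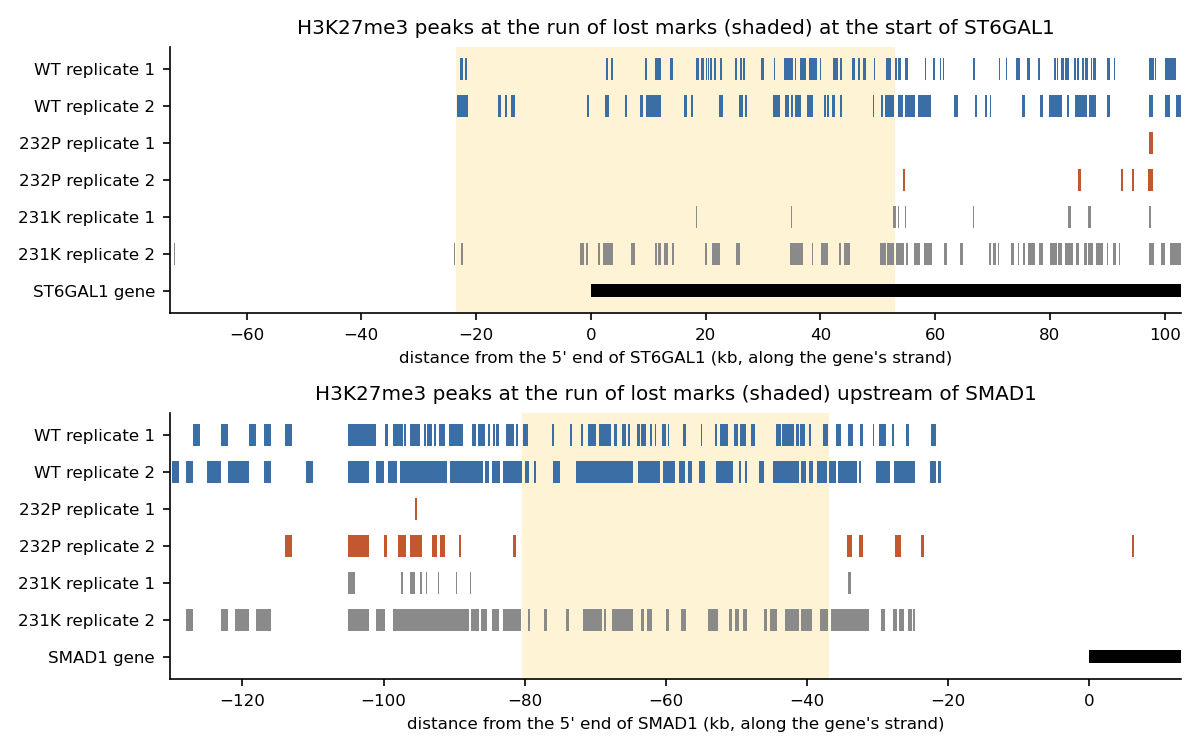
H3K27me3 peaks (bars) of the 6 lists around ST6GAL1 and upstream of SMAD1, by distance from the 5′ end of the gene in kb (horizontal axis). The shaded runs of lost marks hold 31 and 26 WT peaks at ST6GAL1 and 28 and 17 at SMAD1, and no 232P peak. 231K replicate 1 has 3 and 0, and replicate 2 has 20 and 19.

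A run of 16 over 340 kb (chr11:7100723-7441155) overlapped SYT9, a synaptotagmin of vesicle release that is also on the upregulated list. WT had 35 and 40 peaks in it, 232P had 0 and 1, and 231K had 0 and 14. Another run of 16 spanned 35.2 kb with no protein-coding gene (chr14:84431381-84466622), of which WT peaks covered 41.5% and 66.8%, 232P peaks none, and 231K peaks 2.10% and 56.1%. On chromosome 20, 10 marks in a row were lost over 112 kb at SIRPB1 and SIRPG, receptors of immune cells, and 35 of 49 marks (71.4%) in the window of FERMT1 and BMP2, from 6000001 to 7000000. That window was also named for its high lost share. Its marks had a median WT percentile of 27.9, against 49.2 over all marks in both WT lists. By chromosome, the lost share went from 13.9% on chromosome 7 to 25.4% on chromosome 22, and the gained share from 1.08% on chromosome 18 to 3.51% on chromosome 10. Chromosomes 7, 17, 19 and 1, with 13.9%, 16.1%, 17.0% and 17.6%, had the 4 lowest lost shares. The median local background of peaks on chromosome 7 was 1.41 to 1.5 times the genome-wide floor in the 4 lists, and on chromosome 1 it was 1.18 to 1.3 times, whereas on chromosome 17 it was 1 to 1.13 times the floor and on chromosome 19 at the floor. The part of background in these shares was not tested.

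At the gained end, 31 protein-coding genes had a gained TSS mark, 1.29% of the 2410 with a TSS mark in both 232P lists. Their median fold was 3.48 and 3.32 in 232P replicates 1 and 2. For 18 of the 31 genes the mark was in 1 or both of the 231K lists, and for 13 genes it had no WT peak within 1 kb. ADRB3 and ENSG00000285880, both among these 13, share 1 mark. For 5 genes, OR8J3, OR10H5, TPRG1, CSMD3 and GABBR2, both a gained and a lost TSS mark were found. OR8J3, an olfactory receptor, ranked first among the gained with a fold of 4.47 and 4.86 (chr11:56139996-56140534). Its lost mark lay directly beside it (chr11:56139732-56139992), with a WT fold of 3.18 and 2.48. RNASE10, a secreted protein of the ribonuclease family, ranked next with 4.47 and 4.41 (chr14:20504773-20505203). ST8SIA6, a sialyltransferase, had 4.79 and 3.97, with the nearest WT peak 1666 bp away. The number of genes was 12 when called by any peak at the TSS, 18 with merging within 1 kb, 71 with lists of equal number and 8 with a -log10 q of at least 5. It was 78 and 98 without WT replicate 1 or 2, and 333 and 434 without 232P replicate 1 or 2.

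Of the 9 gained marks without a WT peak within 100 kb, 4 lay at a TSS. ADRB3, a beta adrenergic receptor of fat cells, had a fold of 5.97 in 232P replicate 1 and 3.53 in replicate 2, with a -log10 q of 5.26 and 2.40 (chr8:37966549-37966969). The nearest WT peak was 263252 bp away, and the mark covers the 5′ end of the gene and lies within 1 kb of that of ENSG00000285880. LOXL2, an enzyme that cross-links collagen and is on the upregulated list, had 4.47 and 3.53, with the nearest WT peak 171363 bp away (chr8:23404405-23404761). This mark lies inside the gene at an alternative start, 20.6 to 20.9 kb from the 5′ end. ZNF804A, a zinc finger gene, had 3.04 and 3.38, and BNC2, a zinc finger gene of fibroblasts, 2.98 and 2.71. The ADRB3 fold in replicate 1 was the highest of all gained marks in that list, from 11 reads at the summit, while the other 3 marks had a fold near or below the median of marks in all 4 lists. Of the 9, 7 were in neither 231K list and none in both. The gained IGFBP3 mark, 359 bp wide, had 3.95 and 2.73. All 4 lists held other peaks at the TSS of IGFBP3, with a highest fold of 5.68 and 4.58 in WT and 4.75 and 5.55 in 232P. The gene encodes a secreted binder of insulin-like growth factors.

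EZH2, SUZ12 and some other genes that the study discusses had no peak to compare, unlike IGFBP3. EZH2, SUZ12, GPR37, ITGA3 and MRC2 had none in any of the lists. The other Tau-KO line, 231K, was compared with the same 2 WT lists, so that the counts of the 2 lines are not independent. It had 7512 lost and 5619 gained marks by the same rule, at a relative depth of 94.8% and 68.7% in its replicates. Of the 18920 marks lost in 232P, 7056 (37.3%) were in both 231K lists, 7322 in 1 and 4542 (24.0%) in neither. Of the 980 gained, 288 (29.4%) were in both, 426 in 1 and 266 (27.1%) in neither. The difference between the lines was not tested.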

How the data were processed

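H3K27me3 (antibody C36B11) was measured by ChIP-seq in WT and 232P SH-SY5Y cells, with n = 2 biological replicates each. Per the labels and methods, the authors used trimmomatic for trimming, BWA for mapping to HG38 and MACS version 2 for peaks of each sample. The methods name the broadPeak setting, but the deposited lists have the narrowPeak columns. The q-value threshold and control are not given in the sources used here. The deposited fold enrichment is a ratio of summit height to local background, after 1 was added to both. On the -log10 scale, the authors deposited a p-value and a q-value per summit. Input samples were not analysed here. The peak lists used here hold no read counts over shared regions, so the limma test of the study was not fitted.

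Peaks overlapping by at least 1 bp on the autosomes were merged. Whole read heights were recovered for 100% of peaks (tolerance 0.001 in -log10 p). Genes were those of GENCODE release 44, with a TSS window of 1000 bp on each side, and 19111 protein-coding genes. Copies were found with BLAST 2.17.0, and their number includes the mark itself. Python 3.11.15, numpy 2.4.6, scipy 1.17.1 and pysam 0.24.0 were used. Height recovery, merging, presence and the lost and gained calls were tested on simulated data, and the other steps were not. Named were the 20 highest ranking lost and 10 highest ranking gained TSS genes (ties by name), up to 4 genes per class, and genes of the upregulated list. ENSG00000285880 shares the mark of ADRB3. Members and lists were chosen with earlier results of these data known. Runs, satellite zones, depth scaling and the loci shown were added after the values were seen. The results for some single genes are not reported here. Peaks hold no read totals, so no counting interval is given.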

Additional observations from a re-analysis of the deposited data

How the results depend on the processing

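The alternatives were a q-value under 0.05, a -log10 q of at least 5, lists of equal number (136426 peaks), equal depth, merging within 1 kb, presence at 50% coverage, chromosome X added, a TSS window of 2.5 kb, a call by gene, depth scaling, removal of marks near alpha satellite, and leaving out each replicate. All 28 alternatives of the 3 ratios stayed below 1, and 20 of 54 alternatives of the counts were within 1.5 times the reported value. With merging within 1 kb, however, the peak numbers of the groups overlapped. 232P replicate 2 then had more peaks than WT replicate 2, 87086 against 79463. Lost marks numbered 4855 with a -log10 q of at least 5, 7998 with equal number, 12370 at equal depth and 5379 with merging. Gained marks numbered 48, 1912 with equal number, 242 with merging and 537 at 50% coverage. Genes with a lost TSS mark numbered 210 with equal number, 152 with merging, 698 at 50% coverage, 599 with chromosome X, 690 with the wider window and 153 when called by gene. Genes with a gained TSS mark numbered 8 at the stricter q, 71 with equal number, 18 with merging, 52 with the wider window and 12 when called by gene. With 1 replicate left out, lost marks ranged from 23637 to 61062, gained marks from 2248 to 24905, genes with a lost mark from 670 to 947 and genes with a gained mark from 78 to 434. The ratio of peak numbers ranged from 0.626 to 0.831, that of covered length from 0.296 to 0.871 and that of genes with a TSS peak from 0.821 to 0.890. Equal depth joins scaled heights with 1 common p-value threshold, and matches neither read sampling nor peak width. The lost share was 17.0% under it and 14.6% with equal number, and the gained share 3.27% and 4.96%. The causes of these changes were not tested.

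Replicate numbers were checked as a block. Over 193414 marks not in all 4 lists, deviations from the group means of lists with the same number had a correlation of 0.0563, and the labels state no pairing. With the number as replicate block, the ratios were 0.721 for peak number, 0.513 for covered length and 0.855 for genes with a TSS peak (exact permutation within the block, p = 0.500 each, the smallest possible). Depth limits all counts, since absence of a peak shows no more than that the caller's threshold was not reached in that library. With 2 lists per group no test could reach 0.05, and lists of the same replicate number had a like smallest peak width.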

Other observations

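Chromosome X was outside the comparison. It held 14509 marks in both WT lists, of which 5776 (39.8%) were lost in 232P, and 3902 in both 232P lists, of which 163 (4.18%) were gained. WT peaks on chromosome X were weaker, with a median fold of 3.18 and 3.36 in replicates 1 and 2, against 3.51 and 3.78 for the WT lists. The part of WT strength in the lost share was not tested. For every 100 autosomal peaks WT had 15.7 (replicate 1) and 17.6 (replicate 2) peaks on chromosome X, 231K had 14.4 and 17.8, and 232P had 7.83 and 12.4. The 232P values lay below those of the other 4 lists in both replicates. Peaks covered 19.6 and 26.3 Mb of chromosome X in WT and 3.71 and 15.6 Mb in 232P.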
